A study of Mus musculus with 8 samples.

Results

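The 10 genes described here are the 4 Notch receptors (Notch1, Notch2, Notch3 and Notch4), the ligands Jag1, Jag2 and Dll4, and the target genes Hey1, Hey2 and Heyl. They were taken by name, through the accession or gene name of every probe that is not a control, and 12 of 55681 such probes carried one of them. All 10 genes were measured, out of 24291 genes tested. Notch1 and Notch2 had 2 probes each and the other genes 1. All 12 probes passed the filter on dim signals; the second Notch1 probe was above background on 7 of the 8 arrays and the other 11 on all 8.

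Each array held Cy3-labelled total RNA from a pool of 4 mouse outflow tracts dissected at E10.5. The outflow tract is the segment through which blood leaves the embryonic heart. One group came from RA-rescued Raldh2-/- embryos (knockout pools 1, 2, 3 and 7) and the other from RA-rescued WT littermates (wild type pools 1, 2, 5 and 7). Raldh2, now Aldh1a2, is the enzyme that makes most of the early embryo's retinoic acid. The dams of both groups ate food with 0.1 mg/g all-trans-RA from E7.5 to E8.5, so the wild type pools were treated too and no untreated pool is part of the comparison. A pool averages 4 tracts, and the loss of Raldh2 was in every cell of the embryo. In bulk tissue, fewer cells of a type and less RNA per cell cannot be told apart. Of the marker lists, all 10 cardiomyocyte genes, 7 of 8 smooth muscle genes and all 18 endothelial genes were measured, that is, passed the filter. All 7 neuronal, all 7 erythroid and all 7 epithelial genes were measured too, so these counts do not tell tissues apart. The sample titles carry prefixes that may give the place of an array on the slide. If they do, knockout arrays lay in 1 row and wild type arrays in the other, so that row and genotype cannot be told apart.

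Notch receptors are single-pass membrane proteins that are bound by ligands of the Jagged and Delta-like families on a neighbouring cell. Binding leads to cleavage of the receptor, at the last step by gamma-secretase, and the freed intracellular domain enters the nucleus, where it joins the DNA-binding protein Rbpj and a Mastermind coactivator at target genes. The Hey genes, which encode basic helix-loop-helix repressors, are among the best known of these targets in heart and vessels. In the outflow tract, Notch signalling takes part in endocardial cushion formation, in arterial identity of endothelium, and in the smooth muscle fate of neural crest and second heart field cells.

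The promoter of Hey2 is shown because it was the only one among the 8 matched members (Hey1 and Heyl had no entry) that held the letters of the Rbpj core site, TGGGAA, on either strand. It is printed 5′ to 3′ on the gene's strand, minus strand, GRCm38.p6 chr10:30842781-30843033, from RefSeq, from 250 bases before the start to the end of the last match, with the matches in capitals.
Hey2 promoter: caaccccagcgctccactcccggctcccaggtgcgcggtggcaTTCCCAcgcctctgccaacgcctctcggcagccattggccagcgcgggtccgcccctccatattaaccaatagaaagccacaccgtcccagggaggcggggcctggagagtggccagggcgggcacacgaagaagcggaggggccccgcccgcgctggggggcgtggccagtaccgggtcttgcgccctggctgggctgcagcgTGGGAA
The first match reads on the opposite strand and begins 207 bases before the start, and the second begins 3 bases before it. The 2 do not overlap. Over all 32851 promoter windows of 250 bases before to 50 after a start, 25.6% held TGGGAA on either strand. The hexamer AGGTCA, which retinoic acid receptors can bind, was in 16.3% of the windows and in 0 of the 8 members' windows. A match of 6 letters is a description and not a site, and no match says only that these letters are not in this window.

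The 2 probes below are shown because the 2 receptors with more than 1 probe gave different values by probe. Both lie in sequence coding for the intracellular domain.
Notch1 probe, minus strand of mm9 chr2:26319440-26319499: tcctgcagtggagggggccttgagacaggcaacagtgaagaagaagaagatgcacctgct
Notch2 second probe, plus strand of mm9 chr3:97951233-97951292: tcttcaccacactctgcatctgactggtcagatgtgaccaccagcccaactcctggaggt
The Notch1 probe is the one that stood for the gene, as the probe with the highest mean, and the other Notch1 probe lies 4810 bases away. The Notch2 probe shown did not stand for its gene; the one that did lies 2681 bases away. The second probes were dim: leaving out wild type pool 1, over 7 arrays the processed signal of the second Notch1 probe was 27.6 to 75.4 and that of the second Notch2 probe 30.5 to 55.9.

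One array, that of wild type pool 1, was unlike the other 7, and the differences of the Notch genes below are given with and without it. There, 94.7% of spots were well above background, against 53.3% to 63.2% elsewhere, and the median signal was 2023 against 40.0 to 83.0. Its departure from the other wild type pools ran with the level of a gene: the median was +2.46 (log2) for 9033 genes under -2 and -2.09 for 2569 genes at 4 and over. Of the Notch genes, Notch1 was 1.28 and Dll4 0.99 above the other wild type pools on that array. The other 8 were below them, from -1.21 for Hey2 to -2.18 for Notch3. Each value is the log2 of the processed signal after division by the 75th percentile of its array, so 0 stands for a signal at that percentile. The percentile was 4211 on the array of wild type pool 1 and 659 to 1134 on the other 7. Before division, none of those 8 genes had its lowest wild type signal on that array. Hey1, for one, had 8469 there, against 5184 to 8523 in the other wild type pools. Values cannot be compared between genes, since each probe binds with its own strength. Between pools they can be compared, with a limit for wild type pool 1. Division by 1 percentile does not remove a departure that runs with level. Differences are knockout minus wild type, with the standard error and p of limma, and p-values were adjusted by Benjamini-Hochberg over all genes tested with a threshold of 0.05.

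With 8 arrays, 0 of the 10 Notch genes passed, beside 0 of 24291 genes tested (0%), where the smallest adjusted p of limma was 0.49. None of the 10 had an unadjusted p under 0.05, which 433 genes (1.78%) had, and in none were the 2 groups free of overlap, as they were in 1334 genes (5.49%). Without wild type pool 1, again 0 of 10 passed, beside 0 of 23668 genes (0%), with a smallest adjusted p of 0.22. At an unadjusted p under 0.05, 1 of the 10 was higher in the knockout (Notch1) and 1 lower (Jag2), beside 6.24% of genes higher and 4.35% lower. The groups did not overlap in 1 of 10, Notch1, which was higher, beside 6.55% of genes higher and 4.88% lower. These shares are near those of all genes.

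Aldh1a2, the gene disrupted in the mutants, was lower in the knockout pools than in 3 of the 4 wild type pools; whether its probe lies in the disrupted part is not given in the sources used here. Knockout pools 1, 2, 3 and 7 read 2.02, 2.01, 1.87 and 0.059, whereas wild type pools 1, 2, 5 and 7 read 1.92, 3.21, 2.98 and 3.65. The difference was -1.45 with 8 arrays (exact two-sided permutation test, p = 0.086 over 70 assignments) and -1.79 without wild type pool 1 (exact permutation p = 0.029 over 35 assignments, the smallest they can give). Knockout pool 7 was far below the other knockout pools. After division by the percentile of its array, wild type pool 1 lay among the knockout pools. Its Aldh1a2 signal before division, 15974, was the highest of all pools. The knockout pools had 917 to 4230, and wild type pools 2, 5 and 7 had 7348 to 8353. The percentile was also highest on the array of wild type pool 1, so the place of that pool depends on the division.

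**Figure D1:**
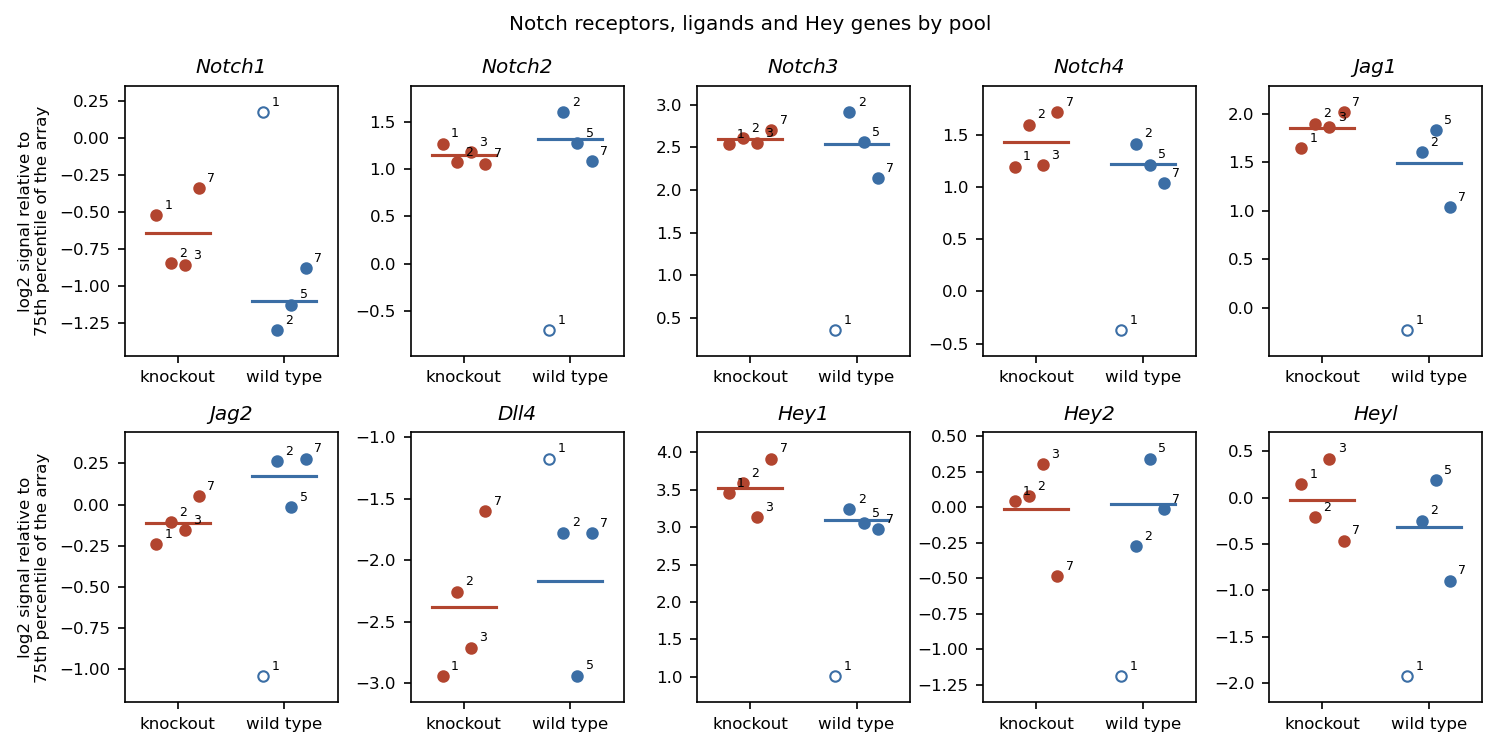
Log2 signal over the 75th percentile of the same array (y axis, a separate scale in each panel) of the 10 Notch genes in 4 knockout pools (red) and 4 wild type pools (blue), with the pool number beside each point. The open circle is wild type pool 1, and lines are the means of the filled points. Wild type pool 1 lies above all other pools for Notch1 and Dll4 and below them for the other 8 genes, and without it only Notch1 has groups that do not overlap.

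Among the receptors, Notch1 is the one known for its role in endocardium and arterial endothelium. Its values in knockout pools 1, 2, 3 and 7 were -0.52, -0.84, -0.86 and -0.34. Those of wild type pools 1, 2, 5 and 7 were 0.18, -1.30, -1.13 and -0.88. The highest of all 8 values was that of wild type pool 1, and the lowest of the knockout values, -0.86, lay just above the highest of the other 3 wild type values, -0.88. The Notch1 difference was 0.14 ± 0.37 (SE, n = 4 against 4, adjusted p of limma 0.84). Without wild type pool 1 it was 0.46 ± 0.17 (n = 4 against 3), a 1.37-fold higher mean in the knockout, with an unadjusted limma p of 0.031 and an adjusted p of 0.43. The second Notch1 probe gave -0.44 ± 0.70 with 8 arrays and 0.28 ± 0.34 without wild type pool 1, with groups that overlapped, so the gap between groups was seen with 1 of the 2 probes.

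Notch2, a receptor with roles in smooth muscle and in the valves, measured 1.27, 1.07, 1.18 and 1.06 in the knockout pools and -0.70, 1.61, 1.27 and 1.09 in the wild type pools, in the same order. The knockout values lay within the range of the 4 wild type values, but only wild type pool 1 was below them; of the others the lowest was 1.09, and knockout pools 2 and 7 lay just under it. The Notch2 difference was 0.33 ± 0.48 with 8 arrays and, with the opposite sign, -0.18 ± 0.14 without wild type pool 1 (adjusted p of limma 0.75 and 0.67). The Notch2 probe shown above gave -0.998 ± 0.52 and -0.54 ± 0.34, so with 8 arrays its sign was opposite to that of the probe that stood for the gene.

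Notch3, the receptor of vascular smooth muscle and pericytes, measured 2.54, 2.61, 2.55 and 2.70 in the knockout pools and 0.36, 2.91, 2.56 and 2.14 in the wild type pools. The knockout pools differed little among themselves (SD 0.073), and the 3 wild type pools other than pool 1 lay on both sides of them (SD 0.39). Its difference was 0.61 ± 0.52, and 0.062 ± 0.18 without wild type pool 1 (adjusted p of limma 0.74 and 0.91). Notch4, a receptor found mainly in endothelium, measured 1.19, 1.60, 1.21 and 1.71 in the knockout pools and -0.37, 1.41, 1.21 and 1.04 in the wild type pools. Knockout pools 2 and 7 were above every wild type pool and knockout pools 1 and 3 were not. The Notch4 difference was 0.60 ± 0.42, and 0.21 ± 0.17 without wild type pool 1 (adjusted p of limma 0.74 and 0.68).

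Among the ligands, Jag1, which is needed for outflow tract and great artery development, measured 1.64, 1.90, 1.87 and 2.02 in the knockout pools. In wild type pools 1, 2, 5 and 7 it measured -0.22, 1.61, 1.83 and 1.04. The 4 knockout pools lay close together (SD 0.16), and 3 of them were above the highest wild type pool. The Jag1 difference was 0.79 ± 0.45, and 0.36 ± 0.20 without wild type pool 1 (adjusted p of limma 0.74 and 0.54). Of the wild type pools, pool 7 held the lowest of the wild type values that remained: leaving that pool out as well brought the difference to 0.14.

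Jag2, the second Jagged ligand, stood opposite to Jag1 once wild type pool 1 was left out. It measured -0.24, -0.11, -0.16 and 0.054 in the knockout pools and -1.04, 0.26, -0.017 and 0.28 in the wild type pools. Without wild type pool 1, only knockout pool 7 was above a wild type pool, pool 5. The Jag2 difference was 0.016 ± 0.34 with 8 arrays (adjusted p of limma 0.98). Leaving out wild type pool 1 gave -0.29 ± 0.12, a 1.22-fold lower mean in the knockout, with an unadjusted limma p of 0.048 and an adjusted p of 0.47. Whether the differences of Jag1 and Jag2 differ from each other was not tested.

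Dll4, the Delta-like ligand of arterial endothelium, measured -2.95, -2.26, -2.71 and -1.60 in the knockout pools and -1.17, -1.78, -2.94 and -1.78 in the wild type pools. Both groups ran over more than 1 log2 unit, and the groups overlapped over nearly their whole range. Its difference was -0.46 ± 0.45, the only one of the 10 below 0 with 8 arrays, and -0.21 ± 0.41 without wild type pool 1 (adjusted p of limma 0.74 and 0.86).

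Of the targets, Hey1 had the largest of the 10 differences with 8 arrays. It measured 3.45, 3.59, 3.13 and 3.91 in the knockout pools and 1.01, 3.24, 3.06 and 2.98 in the wild type pools. Knockout pools 1, 2 and 7 were above every wild type pool, while knockout pool 3 was below wild type pool 2. The Hey1 difference was 0.95 ± 0.51 (adjusted p of limma 0.74). Over the 7 arrays without wild type pool 1 it was 0.43 ± 0.19, a 1.35-fold higher mean in the knockout, with an unadjusted limma p of 0.054 and an adjusted p of 0.47.

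Hey2, a target expressed in arterial endothelium and in myocardium, measured 0.041, 0.077, 0.30 and -0.48 in the knockout pools and -1.19, -0.27, 0.34 and -0.012 in the wild type pools. Knockout pool 7 was the lowest pool after wild type pool 1. Its difference was 0.27 ± 0.38, and -0.035 ± 0.22 without wild type pool 1 (adjusted p of limma 0.74 and 0.96). Heyl, the third Hey gene, found in smooth muscle, measured 0.15, -0.21, 0.42 and -0.46 in the knockout pools and -1.92, -0.25, 0.19 and -0.90 in the wild type pools. Outside wild type pool 1 the wild type values ran from -0.90 to 0.19, and 2 of the 4 knockout values lay above -0.25 and below 0.19. The Heyl difference was 0.69 ± 0.47, and 0.29 ± 0.30 without wild type pool 1 (adjusted p of limma 0.74 and 0.74). The 3 Hey genes thus did not order the pools alike: knockout pool 7 was the highest of all pools for Hey1 and the lowest of the knockout pools for Hey2 and Heyl.

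**Figure D2:**
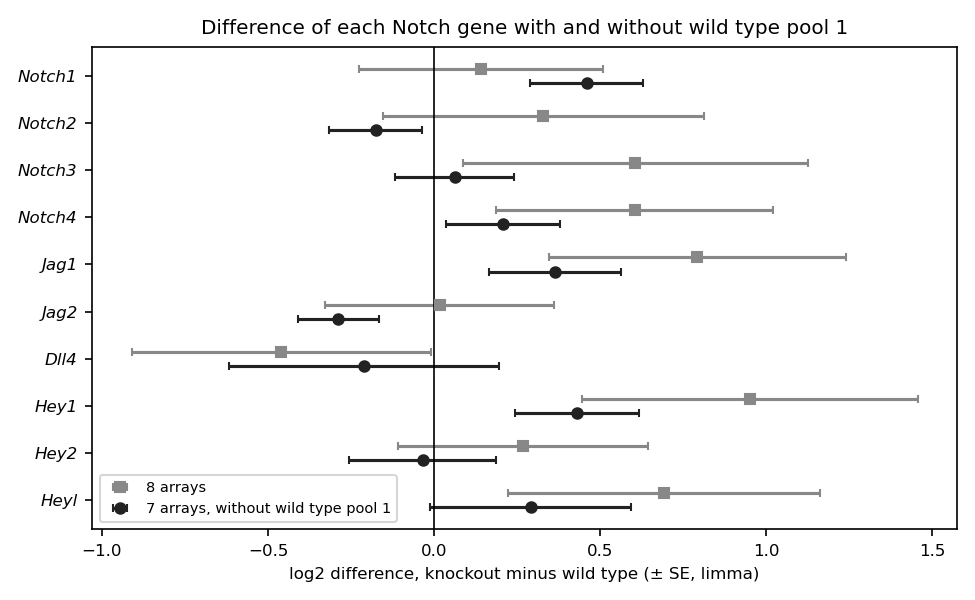
Log2 difference between knockout and wild type (x axis, bars are ± SE of limma) for each of the 10 Notch genes, from 8 arrays (grey squares) and from 7 arrays without wild type pool 1 (black circles). With 8 arrays 9 genes lie above 0, and without wild type pool 1 the standard errors shrink and 6 lie above 0.

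Counted together, 9 of the 10 differences were above 0 with 8 arrays, with a median of 0.47, where all genes tested had a median of 0.13 and 57.1% above 0. The members and all genes are not matched by level. Of the 24291 genes, 9033 lay under -2, where wild type pool 1 was raised by a median of 2.46. Among the members only Dll4 lay there. Without wild type pool 1, 6 of 10 were above 0 with a median of 0.13, beside a median of 0.052 and 59.3% over all genes. The 8 members that were low on the array of wild type pool 1 each had a lower difference without it, and the 2 that were high there a higher one. This follows by arithmetic, since leaving out a low wild type value raises the wild type mean, and leaving out a high one lowers it. With the median of the array in place of its 75th percentile, the all-gene median itself became 0.69 with 8 arrays and -0.17 with 7, and some members had the opposite sign: the Dll4 difference was 0.097 with 8 arrays, and those of Notch3 and Notch4 were -0.16 and -0.016 with 7.

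The rest of the pathway was taken from lists of 60 genes by role, of which 56 were measured. With 8 arrays 41 were higher and 15 lower in the knockout, with a median difference of 0.33, and 0 passed the threshold. At an unadjusted p under 0.05 there was 1 of 56, Aph1b, beside 1.78% of all genes. Over 7 arrays the split was 33 higher and 22 lower of 55, with a median of 0.051, and again 0 passed. In that fit, 2 of 55 were higher at an unadjusted p under 0.05, Aph1b and Itch, beside 6.24% of genes. In the other direction 2 of 55 were lower, Neurl1a and Dtx3, beside 4.35%. With 8 arrays the groups did not overlap in 3 of 56, all higher, beside 5.49% of all genes in either direction. Over 7 arrays they did not overlap in 3 of 55 that were higher and 2 of 55 that were lower, beside 6.55% and 4.88%. These shares are near those of all genes.

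Aph1b, a subunit of the gamma-secretase that frees the intracellular domain, measured 0.39, 0.028, 0.39 and 0.28 in the knockout pools and -1.77, -0.43, -0.21 and -0.15 in the wild type pools. It was 1 of the 3 pathway genes whose groups did not overlap with 8 arrays, and they did not overlap without wild type pool 1 either. Its difference was 0.91 ± 0.39, and 0.53 ± 0.13 without wild type pool 1 (adjusted p of limma 0.74 and 0.35). Aph1c, a close copy of Aph1b in the mouse, was not among the genes measured, and a probe for one may bind the transcript of the other. Of the 9 cleavage genes measured, 8 were higher with 8 arrays and 6 without wild type pool 1.

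Itch, a ubiquitin ligase that acts on Notch among other proteins, measured 1.01, 0.95, 1.05 and 1.04 in the knockout pools and -1.11, 0.57, 0.71 and 0.55 in the wild type pools. The knockout pools lay close together and above every wild type pool. The Itch difference was 0.83 ± 0.42, and 0.40 ± 0.090 without wild type pool 1 (adjusted p of limma 0.74 and 0.35). Of the 10 negative regulators measured, 7 were higher with 8 arrays and 6 without that pool. In the ligand endocytosis list, which holds the genes that let a ligand-bearing cell pull on the receptor, 6 of 7 were higher with 8 arrays and 2 of 7 without wild type pool 1. Neurl1a, named here after its values were seen, had a difference of -0.16 with 8 arrays and -0.52 ± 0.16 without wild type pool 1, where the groups did not overlap.

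The nuclear complex and corepressor list held 13 of 14 genes higher with 8 arrays and 11 of 14 without wild type pool 1, with medians of 0.57 and 0.11. The Groucho-type corepressor Tle1 had a difference of 1.03 ± 0.52, and 0.53 ± 0.29 without that pool. The histone deacetylase gene Hdac1 had 0.82 ± 0.52 and 0.26 ± 0.14, and Tle3 0.54 ± 0.36 and 0.24 ± 0.18. For each of these 3 the adjusted p of limma was 0.74 with 8 arrays and at least 0.54 without wild type pool 1, and the groups overlapped in the latter. Rbpj itself, the DNA-binding partner of all Notch receptors, had a difference of 0.59 with 8 arrays and 0.082 without wild type pool 1.

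Of the 6 other targets measured, 2 were higher and 4 lower both with 8 arrays and without wild type pool 1. Bhlhe41, a repressor related to the Hey family, had a difference of -1.43 ± 0.79, and -0.59 ± 0.38 without wild type pool 1 (adjusted p of limma 0.74 and 0.59), with wild type pool 1 at 0.39 and the other 7 pools at -4.01 to -2.22. Hes1, the widely expressed target, had a difference of 0.72, and 0.13 without that pool. Of the 5 other ligands measured, 1 was higher and 4 lower with 8 arrays, and 2 and 3 without wild type pool 1.

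**Figure D3:**
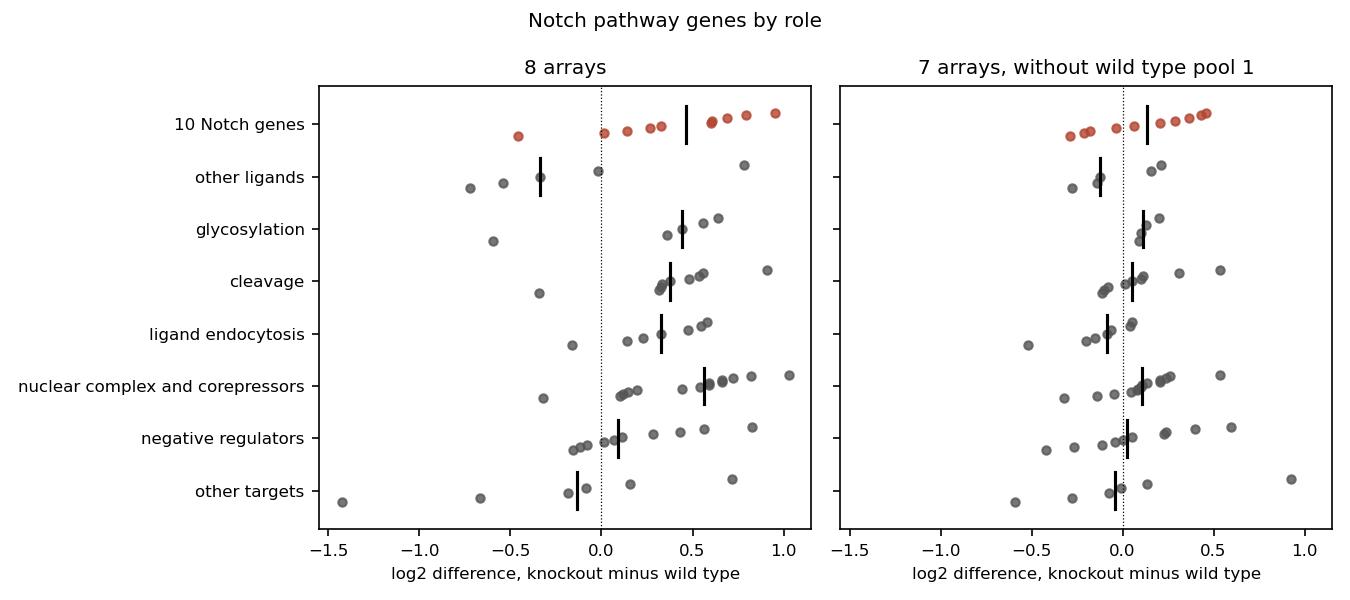
Log2 difference between knockout and wild type (x axis) for the 10 Notch genes (red) and the other measured Notch pathway genes by role (grey), from 8 arrays (left) and 7 arrays without wild type pool 1 (right). Each point is a gene and each black line the median of its list; the members' median is 0.47 on the left and 0.13 on the right.

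Many Notch genes are read in endothelium and endocardium, and the content of these cells may differ between dissected pools. Of 18 endothelial and endocardial genes, all measured, 15 were higher with 8 arrays (median difference 0.39) and 9 of 18 without wild type pool 1 (median -0.0017). Their mean level was 1.28 to 1.74 in the knockout pools and 1.40 to 1.58 in wild type pools 2, 5 and 7, while wild type pool 1 stood at 0.090. Tie1, an endothelial receptor tyrosine kinase, had a difference of 0.82 ± 0.46, and 0.35 ± 0.13 without wild type pool 1, and its groups did not overlap in either case. That was so for 1 of the 18 genes in each case. Over all genes it was 5.49% in either direction with 8 arrays, and 6.55% higher and 4.88% lower without wild type pool 1. Cldn5, a tight junction gene of endothelium, had 1.00 ± 0.57 and 0.67 ± 0.54, with knockout pool 7 at 1.52 far above the other knockout pools (-0.18 to 0.30). For both, the adjusted p of limma was 0.74 with 8 arrays and at least 0.43 without wild type pool 1.

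Arterial identity of endothelium depends in part on Notch. Of 8 arterial genes measured, 7 were higher both with 8 arrays and without wild type pool 1, with medians of 0.67 and 0.24, and 0 passed. Gja4, the arterial connexin 37, measured 1.60, 2.33, 1.81 and 2.73 in the knockout pools and 0.49, 1.60, 1.21 and 1.61 in the wild type pools. Only knockout pool 1, at 1.60, lay below a wild type pool, pool 7 at 1.61. Its difference was 0.89 ± 0.38, and 0.65 ± 0.28 without wild type pool 1 (adjusted p of limma 0.74 and 0.47). Efnb2, the arterial ephrin ligand and a known Notch target, had 0.86 ± 0.50 and 0.35 ± 0.22. The mean of the arterial list was highest in knockout pool 7, at 1.78, against 1.10 to 1.40 in the other knockout pools and 0.99 to 1.30 over wild type pools 2, 5 and 7.

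Of 5 venous genes, 1 was higher with 8 arrays and 2 without wild type pool 1, with medians of -0.30 and -0.14. Flt4, the receptor of lymphatic and venous endothelium, had a difference of -0.96 ± 0.75, and -0.14 ± 0.30 without that pool, and the neuropilin gene Nrp2 had 0.58 ± 0.49 and 0.11 ± 0.25. Of 7 smooth muscle genes measured, 6 were higher with 8 arrays and 2 without wild type pool 1. Their mean level was 4.36 to 4.49 in the knockout pools and 4.48 to 4.53 over wild type pools 2, 5 and 7. Myocd, the coactivator of smooth muscle genes, had 0.46 ± 0.43 and 0.048 ± 0.19, and Smtn, a smooth muscle cytoskeletal gene, 0.45 ± 0.49 and -0.052 ± 0.17.

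Of 12 cushion genes tied to Notch, 10 were higher with 8 arrays and 3 without wild type pool 1, with medians of 0.38 and -0.084. Bmp10, a growth factor gene of trabecular myocardium, had -1.84 ± 1.05 and -0.77 ± 0.63. Its values ran from -6.84 to -3.60 outside wild type pool 1, where it was -0.46. Bmp4, a growth factor gene of the outflow tract myocardium, had 0.73 ± 0.49 and 0.21 ± 0.13. No gene of the venous, smooth muscle or cushion lists passed the threshold.

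Markers of other cells in the dissected piece also differed between pools. All 7 erythroid genes were higher in the knockout with and without wild type pool 1 (medians 1.15 and 0.74), with list means of 3.74 to 5.16 in the knockout pools and 3.20 to 5.08 over wild type pools 2, 5 and 7. Of 7 neuronal genes 5 were higher with 8 arrays and 6 without wild type pool 1, with list means of -2.23 to -1.23 in the knockout pools and -2.66 to -1.40 over wild type pools 2, 5 and 7. All 10 cardiomyocyte genes were higher with 8 arrays and all 10 lower without wild type pool 1 (medians 0.29 and -0.20). Of 7 epithelial genes 4 were higher with 8 arrays and 5 without wild type pool 1 (medians 0.055 and 0.87), with list means of -2.78 to -0.051 in the knockout pools and -2.89 to -0.021 over wild type pools 2, 5 and 7. Krt8, a keratin of simple epithelia, had the opposite direction, with -0.25 and, without that pool, -0.69 ± 0.16 (unadjusted p of limma 0.0028, adjusted 0.35). Its groups then did not overlap, which was so for 1 of the 7, beside 4.88% of all genes in that direction. Krt18 was also lower without that pool, at -0.27. These 2 had knockout means of 3.67 and 4.65. The other 5 were dim and spread widely, with knockout means of -4.62 to -1.80 and SD of 0.96 to 2.04. Of 6 macrophage genes 1 was higher with 8 arrays and 5 without wild type pool 1 (medians -0.36 and 0.36). Of 5 neural crest genes measured 4 and then 2 were higher (0.30 and -0.15), and of 6 epicardial genes 3 in both (0.0025 and -0.014). In wild type pool 1 the list means were 1.96 (erythroid), -1.18 (neuronal), 4.58 (cardiomyocyte) and 0.079 (epithelial). The part of these cells in the values of the Notch genes was not tested.

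To set the Notch genes beside endothelial content, each was expressed as its log2 value minus the mean of the 18 endothelial genes on the same array, a measure that does not move when an array is scaled by a constant factor. Jag2 was then the only one of the 10 whose groups did not overlap. The values of knockout pools 1, 2, 3 and 7 (-1.52, -1.82, -1.63 and -1.69) all lay below those of wild type pools 1, 2, 5 and 7 (-1.13, -1.28, -1.42 and -1.30). The knockout mean was -1.66 ± 0.12 (SD, n = 4) and the wild type mean -1.28 ± 0.12 (SD, n = 4). Wild type pools 2, 5 and 7 averaged -1.33 ± 0.075 (SD, n = 3). Knockout minus wild type came to -0.38, or -0.33 without pool 1. Quantile scaling, which is not a constant factor, gave 0.13 with 8 arrays, with groups that overlapped, and -0.33 without wild type pool 1, where they did not overlap. With the mean of a gene's probes the groups did not overlap for Notch2 either, which was lower in the knockout, with and without that pool. That mean takes in the dim second Notch2 probe, and with the probe that stood for the gene the groups overlapped. The shares of all genes that follow were taken with the probe of highest mean. On this scale, groups did not overlap in 2.54% of all genes in the lower direction and 0.375% in the higher direction with 8 arrays, and in 3.4% and 1.91% without wild type pool 1, against which the 1 of 10 is to be read. Jag2 is the ligand whose difference was near 0 with 8 arrays on the other scale, and the 2 scales part at wild type pool 1, where the endothelial list was low too.

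Notch1 relative to the endothelial list measured -1.80, -2.55, -2.34 and -2.08 in the knockout pools and 0.085, -2.84, -2.53 and -2.45 in the wild type pools. The gap seen on the first scale closed, with knockout pool 2 just below wild type pools 5 and 7. Hey1 on this scale had 2.18, 1.88, 1.65 and 2.18 in the knockout pools and 0.92, 1.70, 1.66 and 1.40 in the wild type pools. Knockout pools 1, 2 and 7 were again above every wild type pool, and pool 3 was not. Jag1 had 0.37, 0.19, 0.39 and 0.28 in the knockout pools and -0.31, 0.065, 0.43 and -0.54 in the wild type pools, so that only wild type pool 5 reached the knockout values. The Notch1 difference was -0.26 with 8 arrays and, with the opposite sign, 0.42 without wild type pool 1. Hey1 had 0.55 and 0.39, and Jag1 0.40 and 0.32. For the other 6 genes the differences ran from -0.86 (Dll4) to 0.29 (Heyl) with 8 arrays and from -0.25 (Dll4) to 0.25 (Heyl) without that pool. They carry no test.

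**Figure D4:**
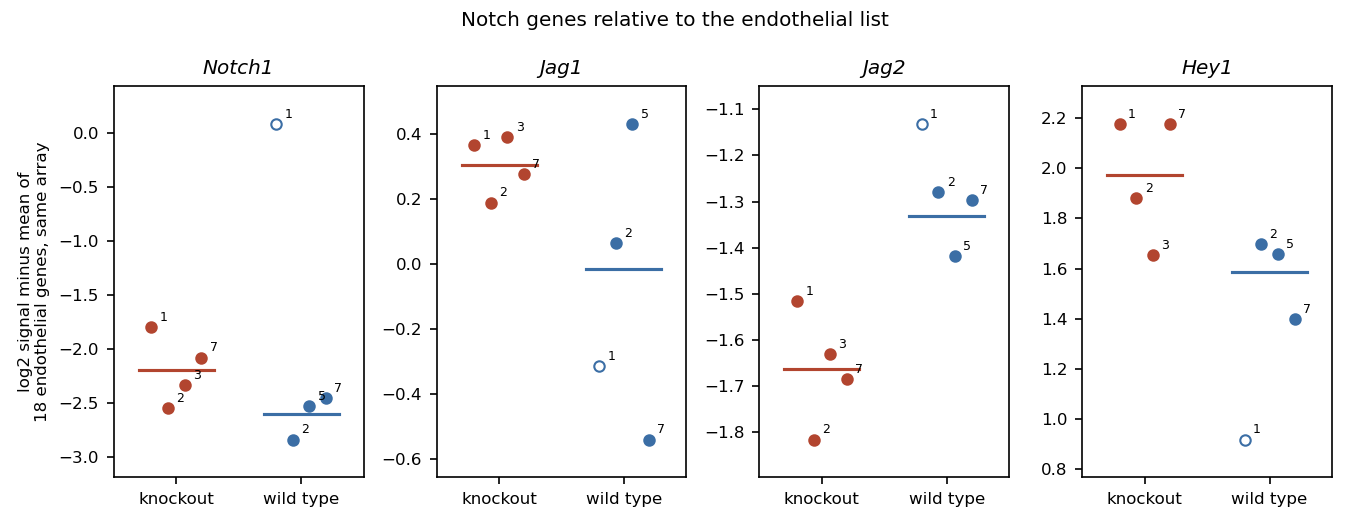
Log2 signal of Notch1, Jag1, Jag2 and Hey1 minus the mean of 18 endothelial genes on the same array (y axis, a separate scale in each panel) in 4 knockout pools (red) and 4 wild type pools (blue), with pool numbers. The open circle is wild type pool 1, and lines are the means of the filled points. The groups do not overlap for Jag2 and overlap for the other 3 genes.

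For each Hey gene, the 2 genes with the most alike pattern over the 7 arrays that leave out wild type pool 1 were found by the root mean square of the difference between centred log2 values, over 16538 other genes with a symbol. For Hey1, whose own SD over the 7 arrays was 0.33, these were Nfatc2ip (0.054) and Zfp462 (0.065), beside a median of 0.35 over all those genes. Both were highest in knockout pool 7, as Hey1 was. For Hey2 they were Gnai1 (0.065) and Pdlim3 (0.076), with a median of 0.34, and both were lowest in knockout pool 7. For Heyl they were Gm6556 (0.098) and Gm13277 (0.099), with a median of 0.47, and both were lowest in wild type pool 7. The 2 genes of each were picked as the closest, so a distance far below the median and a shared extreme pool follow from the choice. These values describe likeness over 7 arrays only.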

How the data were processed

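The authors deposited 1 scanner file per array (Agilent design 028005, Feature Extraction 10.7.3.1, protocol GE1_107_Sep09, probes placed on mm9, per the file headers) and a matrix. They are deposited as intensity values; per the file headers the processed signal was background-subtracted, and no scaling between arrays was applied. The matrix equalled it within 0.497% and was an alternative. Per the labels, RNA was taken without DNase, had an integrity number over 8.0, and 50 ng was labelled.

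From these, spots marked as outliers were dropped and the spots of a probe averaged. Probes well above background on 3 or more arrays of either group were kept, and each gene was read from its kept probe of highest mean. Names came through the accession (26056 probes) from the RefSeq table of GRCm38.p6, or from the file. Groups were compared with limma 3.58.1 in R 4.3.3 (lmFit, eBayes, two-sided), tested first on simulated data. No label says that pools came from separate litters, so p-values measure only the spread between pools, and the number of arrays limits the precision. Whether pools of the same number belong together could not be settled. The deviations of pools numbered 1, 2 and 7 from their group means correlated at -0.15, 0.32 and -0.41 between groups. The wild type mean includes the unlike pool 1, which enters every wild type deviation. Knockout pool 7 correlated at -0.34, -0.50 and -0.41 with wild type pools 2, 5 and 7, whatever their number.

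The members and lists were chosen with earlier results of these data known. Genes named were the members, Aldh1a2, the 6 other pathway genes and 2 genes of each of 5 marker lists with the smallest p with 8 arrays, and 2 genes most like each Hey gene. Neurl1a, Dtx3, Rbpj, Hes1, Krt8 and Krt18 were named after their values were seen. Alternatives covered scaling, background correction, filter, probe choice, variance model, array weights, blocks, and leaving out each pool; some were chosen after seeing the data, among them all that go together with leaving out wild type pool 1, except quantile scaling. Protein sequences were not used here.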

Additional observations from a re-analysis of the deposited data

Results flagged for a closer look

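A pool lay far from the 3 others of its group in 5 of 36 sets of 4 values examined; about 1 in 20 sets would by chance. Hey1 in wild type pool 1 was 1.01, against 2.98 to 3.24 in the other wild type pools. Aldh1a2 in knockout pool 7 was 0.059, against 1.87 to 2.02 in the other knockout pools. The mean of the endothelial and endocardial list in wild type pool 1 was 0.090, against 1.40 to 1.58 in the others. The mean of the smooth muscle list there was 3.07, against 4.48 to 4.53. The mean of the cushion list there was 0.28, against 1.40 to 1.58. All but the Aldh1a2 value come from the array of wild type pool 1.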

How the results depend on the processing

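No Notch gene passed the threshold under any alternative, with 8 arrays or without wild type pool 1. With 8 arrays, Hey1, Heyl, Jag1, Notch3 and Notch4 kept a difference above 0 under all 21 alternatives. Their lowest values, all with array weights, were 0.39, 0.28, 0.23, 0.0089 and 0.12 in that order. Dll4 was 0.26 with quantile scaling and 0.097 with median scaling. With the mean of a gene's probes Notch1 was -0.15 and Notch2 -0.33, and with array weights Notch2 was -0.15 and Jag2 -0.32. With quantile scaling without wild type pool 1, Notch2 was -0.20, Jag2 -0.30 and Hey2 -0.045. Leaving out 1 pool at a time moved Notch1 from -0.031 to 0.46, Notch2 from -0.18 to 0.59, Jag2 from -0.29 to 0.15 and Hey2 from -0.035 to 0.48. The negative ends were without wild type pool 1, except Notch1, without wild type pool 2; Jag2 was -0.039 without knockout pool 7.

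Without wild type pool 1, Hey1, Heyl, Jag1 and Notch1 stayed above 0 and Dll4, Jag2 and Notch2 below 0 under all 19 alternatives, but leaving out 1 more pool moved Heyl from 0.0016 (wild type pool 7) to 0.54 (wild type pool 5), Dll4 from -0.60 (wild type pool 5) to -0.017 (wild type pool 2), Notch2 from -0.29 (wild type pool 7) to -0.035 (wild type pool 2), Jag1 from 0.14 (wild type pool 7) to 0.53 (wild type pool 5) and Notch4 from 0.11 (knockout pool 7) to 0.30 (wild type pool 2). Median scaling gave a median of the members of -0.089, Notch3 at -0.16 and Notch4 at -0.016. Leaving out 1 more pool moved the members' median from -0.0091 (wild type pool 7) to 0.28 (wild type pool 2), Notch3 from -0.14 to 0.25 and Hey2 from -0.18 to 0.13. Over all genes 0 passed in both fits, but 8 passed with array weights (1 higher, 7 lower), and without wild type pool 1, 22 passed with median scaling (3 higher, 19 lower) and 0 to 10 when 1 more pool was left out (10 without wild type pool 5). With the pool number as a replicate block, 0 genes passed in either fit, and the members' median was 0.64 with 8 arrays and 0.18 without wild type pool 1. With no filter on dim probes the median of all genes was -0.30 with 8 arrays and 0.062 without that pool. Jag2 minus the endothelial list was 0.13 with quantile scaling of 8 arrays. The cause of these shifts was not tested. Signal over background limits the second probes of Notch1 and Notch2.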
